A study of Mus musculus with 8 samples.

Results

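Cadherins are adhesion and recognition proteins of the cell surface, built from repeated extracellular domains that bind calcium. The open chromatin of 40 genes of this superfamily was examined in the embryonic heart, in the classical cadherins *Cdh1*, *Cdh2*, *Cdh3*, *Cdh4*, *Cdh6* to *Cdh12*, *Cdh15*, *Cdh18*, *Cdh19*, *Cdh20* and *Cdh22*, the divergent *Cdh13*, *Cdh16*, *Cdh17* and *Cdh23*, the 4 Fat and 3 Celsr genes, *Dchs1*, the 3 calsyntenins and 9 protocadherins. A peak was assigned to one of these genes when its nearest protein-coding transcription start site (TSS) was that of the gene, or when it lay within 10 kb of the gene body. All 40 genes were found among the 21951 protein-coding genes of the annotation. They held 118 of the 15736 peaks in the deposited lists.

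ATAC-seq, which reads accessible DNA by the insertions of the transposase Tn5, was performed on hearts at embryonic day E10.5 in 8 samples. Of these, 4 were WT and 4 were *Chd4-CMko*, in which floxed *Chd4*, the remodelling ATPase of the NuRD complex, is deleted by a *Tnnt2-Cre* transgene that is active in cardiomyocytes. Each sample was a pool of hearts, given as 4 hearts in the extraction protocol and as 3 in the design text. The deposited data were 2 lists of peaks that passed a 2-fold limit between the genotypes, with 12991 peaks enriched in *Chd4-CMko* (gained) and 2745 enriched in WT (lost), and no age, sex or treatment separated the groups in the labels. No value per sample was given, so no replicate error, read depth or test of the genotypes can stand beside the results. The *Chd4* gene had 2 gained and 0 lost peaks, which does not check the deletion. The whole heart was sampled, so a change in the share of a cell type and a change within its cells cannot be told apart. Marker genes of erythroid cells had a lost peak in 5 of 6 and a gained peak in 0 of 6, epicardial markers a lost peak in 4 of 5 and a gained peak in 2 of 5, and cardiomyocyte markers a gained peak in 6 of 8 and a lost peak in 1 of 8. Endothelial markers had a gained peak in 6 of 8 and a lost peak in 3 of 8, and neural markers in 3 of 5 and 1 of 5. Over all protein-coding genes the shares were 37.4% for a gained and 10.8% for a lost peak. The part of these cell types in the results below was not tested.

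Classical cadherins join cells of the same kind at adherens junctions and are tied to actin through catenins. N-cadherin, the product of *Cdh2*, is the classical cadherin of cardiomyocyte junctions, whereas E-cadherin, the product of *Cdh1*, marks epithelia and is low in muscle. Fat and Dachsous cadherins bind each other between neighbouring cells and, with the Celsr receptors, align cells in the plane of a tissue. Protocadherins and calsyntenins are best known from neurons, and *Cdh23* and *Pcdh15* form the tip links of inner ear hair cells.

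Several 151-base intervals with high scores show what the gained and lost sequences of these genes looked like. They are given from the plus strand of GRCm38, 5′ to 3′, for the highest gained peak of 5 genes and for 2 lost peaks. Capitals mark matches to 9 strings searched on both strands. These were CCAAT, the core of the NF-Y site, the string GATAAG, bound by the zinc finger factors of heart and blood such as Gata4, the TEAD core ACATTCC, the E-box string CAGGTG, the KLF string GGGTGTGG, the SP and KLF string GGGCGGGG, the AP-1 string TGACTCA, and the MEF2 and CTCF sites. A match is a description of letters, not a bound site. The gained intervals lay at chr8:106619690-106619840 (*Cdh1*, intron 2), chr2:165113874-165114024 (*Cdh22*, intron 11), chr4:149586282-149586432 (*Clstn1*, 36 bp upstream of a TSS), chr8:122853497-122853647 (*Cdh15*, intron 1) and chr10:60536562-60536712 (*Cdh23*, intron 7). The lost intervals lay at chr9:16215488-16215638 (*Fat3*, intron 3) and chr15:13384944-13385094 (intergenic, 211 kb upstream of *Cdh6*).
Cdh1 gained: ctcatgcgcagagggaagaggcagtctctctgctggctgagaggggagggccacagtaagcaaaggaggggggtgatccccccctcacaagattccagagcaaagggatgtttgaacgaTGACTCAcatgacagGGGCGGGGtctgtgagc
Cdh22 gained: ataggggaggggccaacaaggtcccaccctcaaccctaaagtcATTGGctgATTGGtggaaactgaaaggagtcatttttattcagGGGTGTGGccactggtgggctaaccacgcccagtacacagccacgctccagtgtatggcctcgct
Clstn1 gained: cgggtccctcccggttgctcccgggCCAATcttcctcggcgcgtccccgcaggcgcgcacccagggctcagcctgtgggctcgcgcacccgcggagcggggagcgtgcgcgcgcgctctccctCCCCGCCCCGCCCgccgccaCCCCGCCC
Cdh15 gained: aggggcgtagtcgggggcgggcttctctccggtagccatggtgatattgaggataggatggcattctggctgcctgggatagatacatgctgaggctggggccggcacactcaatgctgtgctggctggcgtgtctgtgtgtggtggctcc
Cdh23 gained: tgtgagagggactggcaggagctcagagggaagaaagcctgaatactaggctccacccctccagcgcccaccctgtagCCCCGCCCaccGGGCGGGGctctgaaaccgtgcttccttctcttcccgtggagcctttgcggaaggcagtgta
Fat3 lost: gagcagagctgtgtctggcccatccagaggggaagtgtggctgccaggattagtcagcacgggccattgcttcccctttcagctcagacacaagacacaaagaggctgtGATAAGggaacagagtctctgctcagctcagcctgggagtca
Cdh6 lost: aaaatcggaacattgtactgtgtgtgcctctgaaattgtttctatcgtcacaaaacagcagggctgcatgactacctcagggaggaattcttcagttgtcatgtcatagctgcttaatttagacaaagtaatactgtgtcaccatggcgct

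Of the 5 gained intervals shown, 4 held a searched string. The *Cdh1* interval (58.9% GC) held GGGCGGGG and TGACTCA at 1 place each. In *Cdh22*, CCAAT occurred at 2 places and GGGTGTGG at 1. The *Clstn1* interval was the richest in G and C (81.5%) and held GGGCGGGG at 3 places and CCAAT at 1. In *Cdh23*, GGGCGGGG occurred at 2 places on opposite strands. The *Cdh15* interval held none of the strings. Among the lost intervals, *Fat3* held 1 GATAAG, and *Cdh6* held none.

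Gained peaks outnumbered lost peaks at the cadherin genes as they did elsewhere. Of the 118 peaks, 99 were gained and 19 were lost, so the gained share was 83.9% (Wilson 95% interval 76.2 to 89.4). The other 15618 listed peaks had a gained share of 82.5%, and the difference of 1.35 percentage points had an interval of -6.35 to 6.93. These intervals reflect counting error alone, and peaks that lie close together are not independent. At least 1 gained peak was assigned to 32 of the 40 genes (80.0%, 65.2 to 89.5), against 37.4% of all protein-coding genes. The 40 genes were selected with earlier results known, so this is a description, and of 21 cadherin genes outside the selection 8 had a gained peak (38.1%). At least 1 lost peak was assigned to 12 of the 40 (30%, 18.1 to 45.4), against 10.8% of all. Both kinds were found at 9 genes, gained peaks alone at 23, and lost peaks alone at 3 (*Cdh12*, *Cdh18* and *Pcdh9*). Neither kind was found at 5 genes, *Cdh7*, *Cdh9*, *Cdh19*, *Celsr2* and *Pcdh10*.

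Cadherin genes are long, and a long gene takes more peaks by the assignment rule. Of the 23 cadherin genes of 100 kb or more, 18 had a gained peak (78.3%, 58.1 to 90.3), against 68.5% of the 2492 protein-coding genes of that length, which lies inside the interval. A lost peak was present at 10 of the 23 (43.5%, 25.6 to 63.2), against 36.5% of long genes, also inside the interval. Among the 17 shorter cadherin genes, 14 had a gained peak (82.4%, 59.0 to 93.8), against 33.4% of 19459 short genes. A lost peak was present at 2 of these 17 (11.8%, 3.29 to 34.3), against 7.47%. The 19 cadherin genes under 100 kb outside the 40 had a gained peak in 7 (36.8%). The classes did not equalize length, since the median was 34.7 kb for short cadherin genes against 14.1 kb for all short genes, and 227 kb against 168 kb for long genes, and the part of this remaining difference was not tested.

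**Figure D1:**
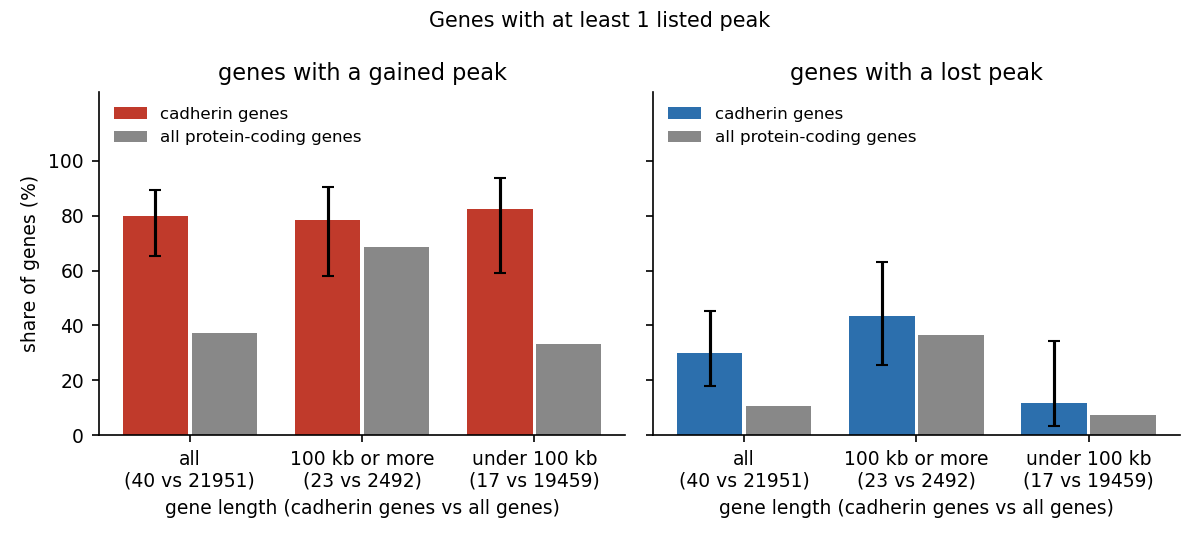
Share of genes (%) with at least 1 gained (left) or lost (right) peak, for all 40 cadherin genes and those of 100 kb or more and under 100 kb, beside all protein-coding genes of the same length class (grey). Error bars are Wilson 95% intervals; the cadherin bar for gained peaks stands at 82.4% against 33.4% in short genes and at 78.3% against 68.5% in long genes.

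A few genes held most of the peaks. The 9 genes with at least 4 gained peaks, *Cdh13*, *Cdh23*, *Cdh4*, *Cdh6*, *Fat4*, *Cdh8*, *Cdh11*, *Cdh22* and *Celsr1*, took 58 of the 99 (58.6%), and the first 3 alone took 32 (32.3%). A further 12 genes had 2 or 3 gained peaks and 11 had 1. Among all protein-coding genes, 7 had more gained peaks than *Cdh13*, 22 more than *Cdh23* and 79 more than *Cdh4*.

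**Figure D2:**
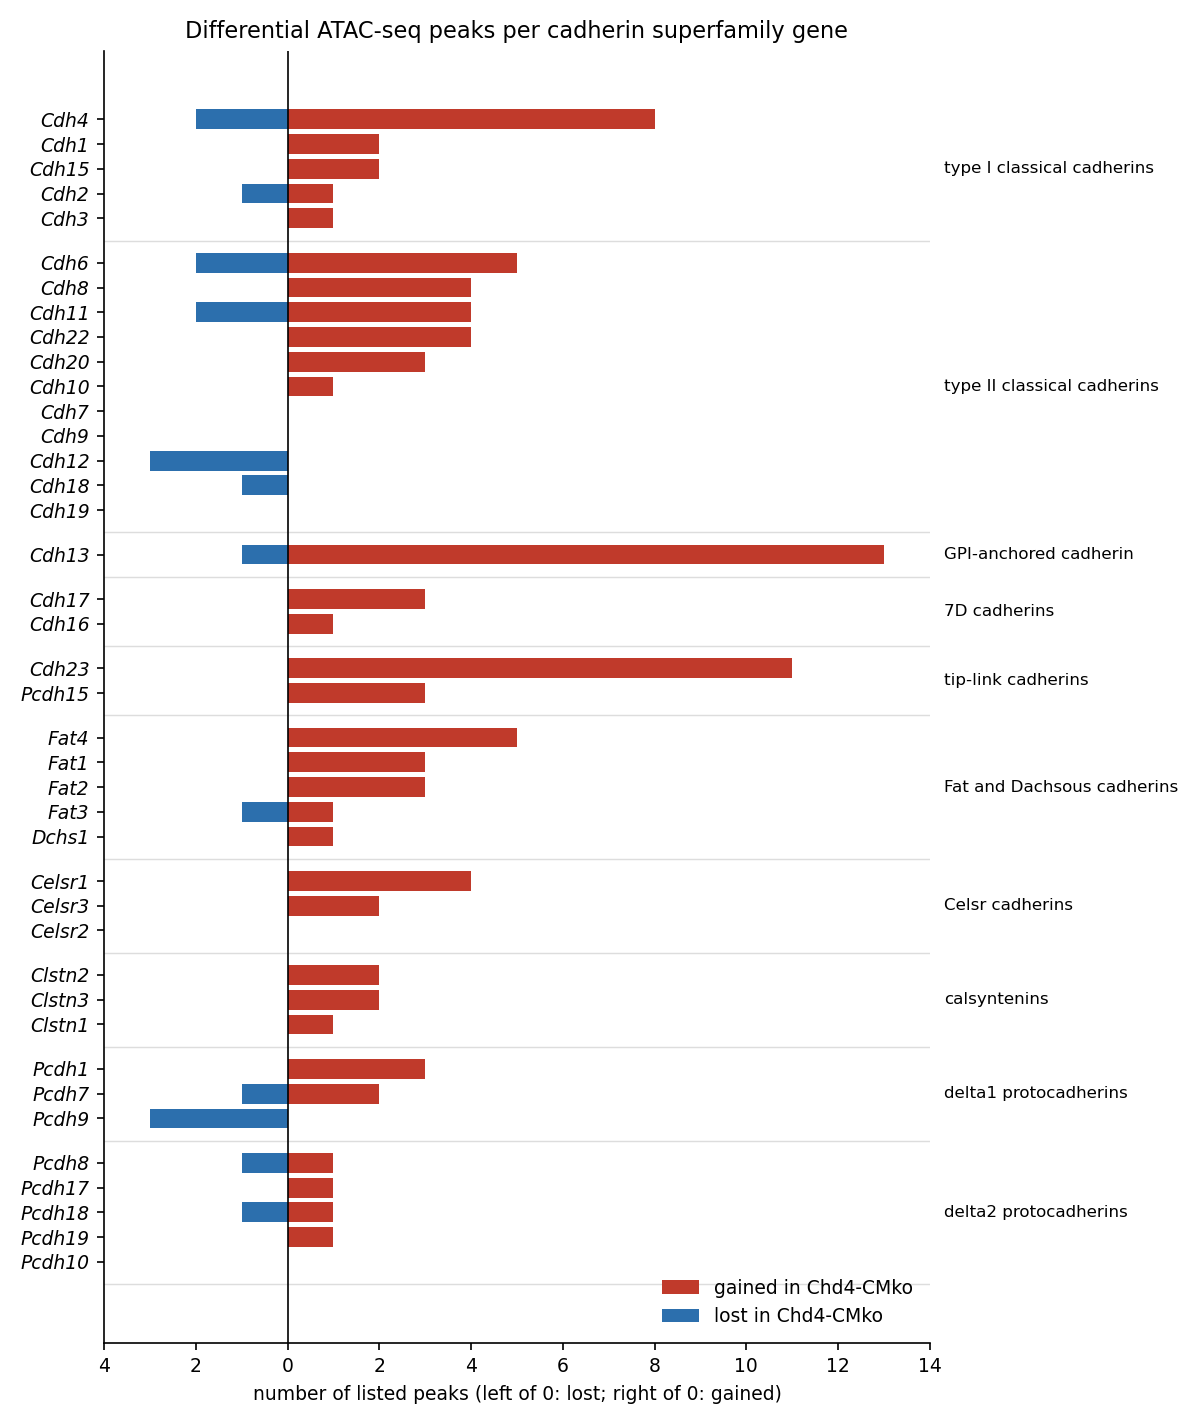
Number of gained (red, right) and lost (blue, left) peaks at each of the 40 cadherin genes, grouped by subfamily. *Cdh13* has the most gained peaks (13), followed by *Cdh23* (11) and *Cdh4* (8), and no gene has more than 3 lost peaks.

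Among the type I classical cadherins, a gained peak was present at all 5 genes and a lost peak at 2 (14 gained and 3 lost peaks in all), beside 37.4% and 10.8% of all protein-coding genes. Both genes with a lost peak, *Cdh2* and *Cdh4*, are longer than 100 kb, where the shares were 68.5% and 36.5%. *Cdh1* had 2 gained peaks, both in intron 2, 16.3 and 30.1 kb downstream of the start of its longest coding transcript. The first had a score of 337, the highest of any gained cadherin peak and above 98.5% of gained peaks, and the second a score of 92.5. The score is the value the authors deposited with each peak. Its scale is not stated, so it ranks peaks within a list and does not give a fold change. *Cdh3*, the P-cadherin gene that neighbours *Cdh1*, had 1 gained peak in intron 3 with a score of 34. *Cdh15* (M-cadherin, known from skeletal muscle) had 2 gained peaks with scores of 199 in intron 1 and 175 at 3069 bp past the end of the gene. Both also lay in the annotated span of *Gm20388*, so their gene is uncertain.

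*Cdh2* (220 kb) had 1 lost peak in intron 2, 95.7 kb downstream of the main start, with a score of 85.3, above 94.0% of lost peaks. Its 1 gained peak was intergenic, 608 kb upstream, with a score of 24.5, above 1.99% of gained peaks. Neither peak was near a TSS of *Cdh2*.

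*Cdh4* (R-cadherin) had 8 gained and 2 lost peaks. Of the gained peaks, 2 lay upstream, at 399 and 164 kb with scores of 101 and 34.5, and 6 lay in introns 2, 4, 4, 7, 7 and 9 with scores of 33, 41, 57.5, 39.5, 111.5 and 173. The highest 2 scores thus belonged to the peaks nearest the 3′ end of the gene. The lost peaks lay 135 kb upstream (score 40.5) and in intron 4 (score 42.5). The lost peak in intron 4 was 1996 bp from a gained peak of the same intron, the shortest distance between a gained and a lost peak in the family.

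Type II classical cadherins, which are expressed in overlapping sets by neural and mesenchymal cells, had 21 gained and 8 lost peaks in all. A gained peak was present at 6 of the 11 genes and a lost peak at 4, and in all genes of 100 kb or more, a length that every gene of the group but *Cdh19* reaches, these shares were 68.5% and 36.5%. *Cdh6* had 5 gained peaks, in the last exon (score 38), in intron 2 (97), and 124, 181 and 246 kb upstream (29, 85.5 and 29). Its 2 lost peaks, 100.0 and 211 kb upstream with scores of 24.7 and 76.2, lay in the same stretch, the nearer one between the gene and the gained peaks and the farther one between gained peaks. *Cdh11*, a cadherin of mesenchymal cells, had 4 gained peaks, 1 in intron 2 (score 22) and 3 at 388, 459 and 628 kb upstream (121.5, 32 and 41). Its 2 lost peaks lay 18.8 kb (18.9) and 529 kb (28) upstream, the second between gained peaks. The highest of the *Cdh11* peaks was covered by repeats over 100% of its length.

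*Cdh8*, known from neurons, had 4 gained peaks, none in its 392 kb body, at 567, 688 and 1102 kb upstream (scores 32.5, 52.5 and 63) and at 651192 bp past its end (40). Those scoring 32.5 and 63 were 66.2% and 100% repeat sequence. *Cdh22* had 4 gained peaks, in introns 11, 10 and 7 (scores 272.5, 57 and 110) and 6.76 kb upstream (42). The first 2 of these were nearer to the TSS of *1700025C18Rik* and belong to *Cdh22* only by lying in its body. *Cdh20* had 3 gained peaks (scores 39, 29.5 and 45.5) and *Cdh10* had 1 (27.5). The *Cdh20* peak scoring 39 was 100% and the *Cdh10* peak 96.7% repeat sequence. *Cdh12* and *Cdh18*, which are neighbours in a gene-poor stretch with *Cdh9* and *Cdh10*, had lost peaks only. For *Cdh12* these were 3 peaks with scores of 50.2, 44.5 and 27.1, of which the first 2 were 84.1% and 96.7% repeat sequence. The peaks scoring 44.5 and 27.1 were nearer to the TSS of *Acot10* and belong to *Cdh12* only by lying in its body. *Cdh18* had 1, with a score of 19.4. *Cdh7*, *Cdh9* and *Cdh19* had none of either kind.

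*Cdh13* (T-cadherin, a GPI-anchored cadherin without a cytoplasmic tail, found in heart and vessels) had the most peaks of the family. The gene spans 1041 kb at chr8:118283733-119324921 and took 13 gained and 1 lost peak. Of the gained peaks, 2 lay 207 and 179 kb upstream (scores 24 and 44) and 11 lay in its body. In intron 1 there were 6, at 21.9, 31.3, 58.2, 205, 206 and 211 kb from the main start with scores of 58.5, 94, 42.5, 35.5, 30.5 and 26. Intron 2 held 1 (score 42), intron 5 held 1 (26), intron 6 held 2 (111.5 and 40) and intron 7 held 1 (29.5). The peak with the score of 94 lay 571 bp from the TSS of a short non-coding transcript of *Cdh13* and not near the main start. The median score of the 13 was 40, against 62.5 for all gained peaks. The lost peak lay 80.8 kb upstream, between the upstream gained peaks and the gene, with a score of 26.4.

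*Cdh23* (tip-link cadherin) had 11 gained and 0 lost peaks, all in introns of its 394 kb body at chr10:60302748-60696490. In order from the main start they lay in introns 2, 4, 7, 7, 7, 15, 29, 42, 42, 45 and 46, with scores of 36.5, 64.5, 40, 82.5, 173.5, 48, 112, 52, 62.5, 57.5 and 75.5. The last 4 formed a cluster with gaps of 1789, 3372 and 2956 bp, and 2 of the 3 in intron 7 were 2605 bp apart. Of the 11, 2 lay nearer to the TSS of another gene, *Vsir* or *Gm17455*. Its tip-link partner *Pcdh15*, at 1550 kb the longest gene of the set, had 3 gained peaks with scores of 52, 25 and 28.5. The first of these was 1122 bp upstream of a non-coding transcript and 724 kb from the start of the longest coding transcript.

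**Figure D3:**
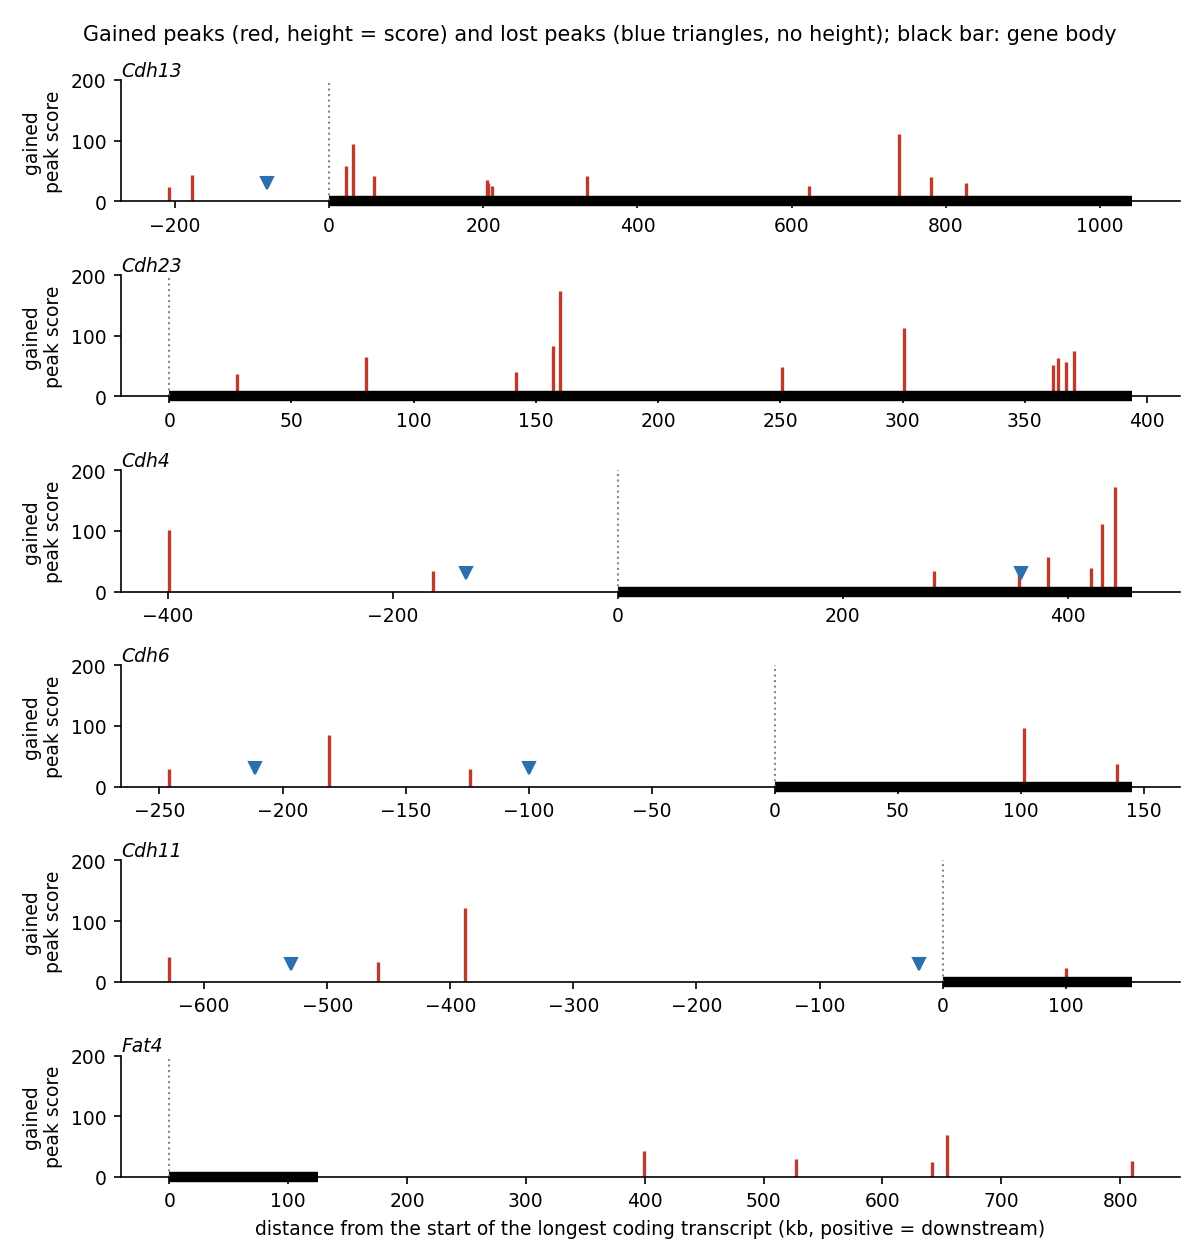
Gained peaks (red, height is the deposited score) and lost peaks (blue triangles, drawn at a fixed height) at the 6 cadherin genes with 5 or more peaks, by distance in kb from the start of the longest coding transcript; the black bar is the gene body. Peaks of *Cdh23* lie only in the body, those of *Fat4* only beyond its 3′ end, and those of *Cdh11* mostly far upstream.

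Both 7D cadherins, named for their 7 cadherin domains, had a gained peak and neither a lost peak, beside shares of 37.4% and 10.8% over all protein-coding genes. *Cdh17*, the liver-intestine cadherin, had 3 in a row between 81.2 and 102 kb downstream of its main start and past its end (scores 42, 67 and 32.5). *Cdh16*, the kidney cadherin, had 1 (163.5) at its 3′ end, which was nearer to the TSS of *Pdp2* and 81.5% repeat sequence.

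A gained peak was present at all 5 Fat and Dachsous genes and a lost peak at *Fat3* only, beside 37.4% and 10.8% of all protein-coding genes and 68.5% and 36.5% of those of 100 kb or more. *Dchs1* encodes the ligand and *Fat4* its receptor. The 1 gained peak of *Dchs1* covered its TSS and had a score of 268.5, above 96.1% of gained peaks. *Fat4* had 5 gained peaks, all between 274697 and 684650 bp past its end, with scores of 42, 29, 25, 69 and 26.5. Those scoring 29 and 26.5 were 79.5% and 94.0% repeat sequence. *Fat1* had 3 (35.5, 23.5 and 38.5), 2 of them 342 and 170 kb upstream of its nearest start. *Fat2* had 3 as well, in exon 13 (49.5) and 5.56 and 30.3 kb upstream (143 and 92.5). In *Fat3* the lost peak shown above, in intron 3, had a score of 161.3, above 98.8% of lost peaks and the highest lost score of the family. Its 1 gained peak, in intron 4, had a score of 28, above 6.30% of gained peaks.

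*Celsr1* and *Celsr3* had gained peaks only, and *Celsr2* had neither kind, beside shares of 37.4% (gained) and 10.8% (lost) over all protein-coding genes. These genes encode receptors of planar cell polarity with both cadherin repeats and a G protein-coupled receptor core. In *Celsr1* there were 4 gained peaks, in introns 1, 2, 2 and 30, with scores of 68, 113.5, 130 and 73.5. The peak in intron 30 was 1245 bp from the TSS of a short coding transcript and 131 kb from the main start, and it lay within 10 kb of *Trmu*. *Celsr3* had 2 gained peaks 1362 and 1027 bp upstream of its TSS, separated by 184 bp, with scores of 142.5 and 145.5. Both also lay within 10 kb of *Nckipsd*, and another annotated TSS was nearer to them, at 0 and 45 bp.

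The 3 calsyntenins, synaptic adhesion proteins, had 5 gained and 0 lost peaks. Each had a gained peak, beside shares of 37.4% (gained) and 10.8% (lost) over all protein-coding genes. For genes of 100 kb or more, such as *Clstn2*, the shares were 68.5% and 36.5%. *Clstn1* had 1 with a score of 233.5, which is the promoter interval shown above. *Clstn2* had 2 in introns 2 and 1 (72.5 and 87.5), and *Clstn3* had 2 in introns 12 and 8 (36.5 and 69).

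Delta protocadherins, adhesion molecules of the developing nervous system, had 5 gained and 4 lost peaks at the 3 delta1 genes and 4 gained and 2 lost peaks at the 5 delta2 genes. A gained peak was present at 2 delta1 and 4 delta2 genes, and a lost peak at 2 of each. Over all protein-coding genes the shares were 37.4% and 10.8%, and over those of 100 kb or more 68.5% and 36.5%. Of the delta1 genes, *Pcdh1* had 3 gained peaks, 1 over its TSS (225.5) and 2 beyond its 3′ end (88 and 66.5). *Pcdh7* had 2 far gained peaks (29 and 21) and 1 lost peak in intron 1 (30.2), and *Pcdh9* had 3 lost peaks only (27.1, 24.7 and 24). Of the delta2 genes, *Pcdh19*, a gene of the X chromosome, had 1 gained peak in exon 1, 411 bp from a TSS (91). *Pcdh8* had 1 gained (29.5) and 1 lost peak (25.3), 72.0 and 39.5 kb from its nearest start. *Pcdh18* also had 1 gained (36.5) and 1 lost peak (24.7), 693 and 190 kb from its nearest start. The gained peak of *Pcdh18* lay 10 bp from another annotated TSS, and its lost peak also belonged to *Slc7a11*. *Pcdh17* had 1 gained peak (31) at 2153 kb upstream, the most distant of the family, and *Pcdh10* had none.

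Position set the cadherin peaks apart from the rest of the lists, and position is in part what the rule selects. Peaks of other genes in equally gene-poor regions were not compared. Promoter peaks, within 3 kb of any annotated TSS, made up 14.1% of the 99 gained peaks (8.61 to 22.3) and 31.0% of the other 12892, a difference of -16.9 points (-22.5 to -8.63). Counted from protein-coding TSSs alone, the share was 10.1% (5.58 to 17.6), against 2995 of all 12991 gained peaks. Introns held 46.5% against 32.9% (difference 13.6, 4.03 to 23.4). More than 50 kb from any coding TSS lay 49.5% against 25.9% (difference 23.6, 13.9 to 33.3). Of the 19 lost peaks, 0 were promoter peaks (Wilson upper limit 16.8%), against 16.9% of the other 2726. Beyond 50 kb lay 78.9% of the lost peaks (56.7 to 91.5), against 32.9%. Of the 99 gained peaks, 55 lay in a cadherin gene body, 7 outside but within 10 kb, and 37 farther away. Of the 19 lost peaks, 9 lay in a body and 10 more than 10 kb from one.

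**Figure D4:**
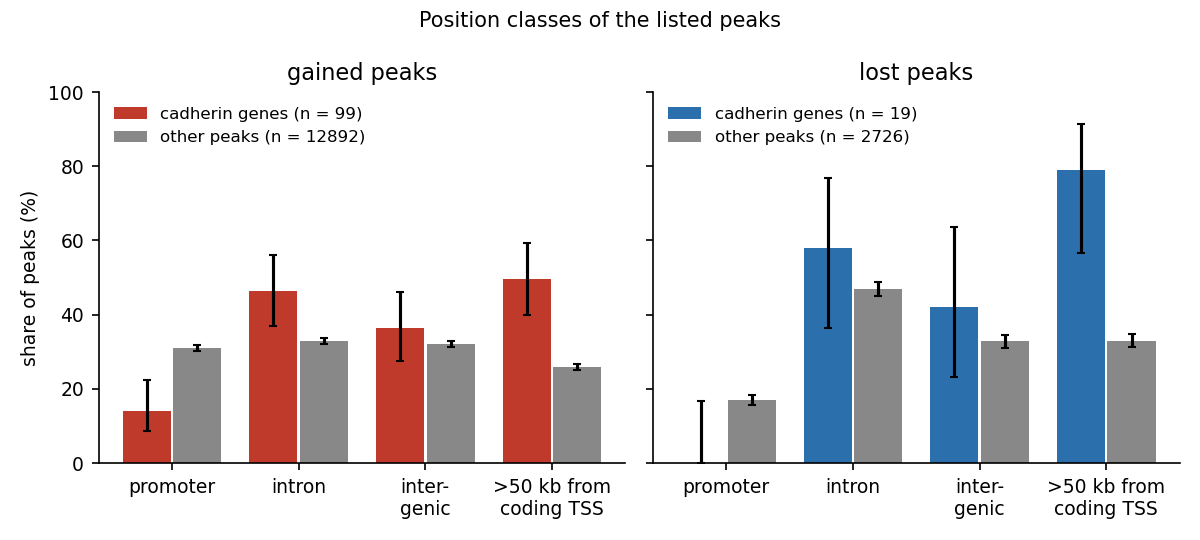
Share of gained (left) and lost (right) peaks (%) that are promoter, intron or intergenic peaks or lie over 50 kb from any coding TSS, for cadherin genes and for all other peaks (grey), with Wilson 95% intervals; the last class overlaps the others. Promoter peaks, within 3 kb of any annotated TSS, make up 14.1% of cadherin gained peaks against 31.0% of others, and 0% of cadherin lost peaks.

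A gained peak near an own TSS was present at 9 of the 40 genes (22.5%, 12.3 to 37.5), against 12.4% of all protein-coding genes. A lost peak there was present at 0 of the 40, against 1.24%. Within 3 kb of one of the gene's own TSSs lay 10 gained peaks of 9 genes (*Cdh13*, *Celsr1*, *Celsr3*, *Clstn1*, *Clstn3*, *Dchs1*, *Pcdh1*, *Pcdh15* and *Pcdh19*) and 0 lost peaks. Counted from the start of the longest coding transcript alone, this left 6 peaks of 5 genes, *Celsr3*, *Clstn1*, *Dchs1*, *Pcdh1* and *Pcdh19*. Their scores ran from 91 to 268.5. The median score of the 10 peaks was 118, against 122 for all 2995 gained peaks within 3 kb of a coding TSS. Over the whole family, 41 of the 99 gained peaks scored at or above the median of the gained list, and the median gained score was 48.0, against 62.5 for other gained peaks. For lost peaks the medians were 27.1 and 36.8.

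Peak density was computed for each gene from the sequence around it. The territory of a gene is here the sequence that the rule assigns to it, and the 40 territories covered 51.7 Mb (1.95% of the genome). Gained peaks numbered 1.91 per Mb in them (exact Poisson 95% interval 1.55 to 2.33), against 4.97 elsewhere. Lost peaks numbered 0.367 per Mb (0.221 to 0.573), against 1.05. The gap was smaller within 10 kb of gene bodies alone, where the gained density was 5.27 per Mb (4.04 to 6.75), against 6.81 (6.67 to 6.95) around the bodies of other coding genes. The lost density there was 0.764 (0.350 to 1.45), against 1.42 (1.35 to 1.48). Territories were also split at 0.5 Mb, a limit chosen after the values were seen, so the values that follow are a description. A gene with a peak in a small territory has a high density by construction. The 16 cadherin genes with a territory under 0.5 Mb had 41 gained peaks, or 22.2 per Mb, against 6.92 for other genes with a small territory. The 24 genes with a larger territory had 58 gained peaks, or 1.16 per Mb, against 2.20. Lost peaks in the larger territories numbered 0.361 per Mb, against 0.676, and in the small ones there was 1 (0.541 per Mb), against 1.31. *Celsr3* had the highest gained density (43.6 per Mb), followed by *Clstn3* (34.4), *Cdh15* (30.5), *Cdh23* (26.3), *Cdh22* (25.8) and *Celsr1* (25.5). Among genes in large territories, only *Cdh13* (10.1) and *Cdh4* (8.35) were above the level of the rest of the genome (4.97). All others were below it, among them *Cdh2* (0.457) and *Pcdh17* (0.296) with 1 gained peak each, and several genes without a gained peak.

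**Figure D5:**
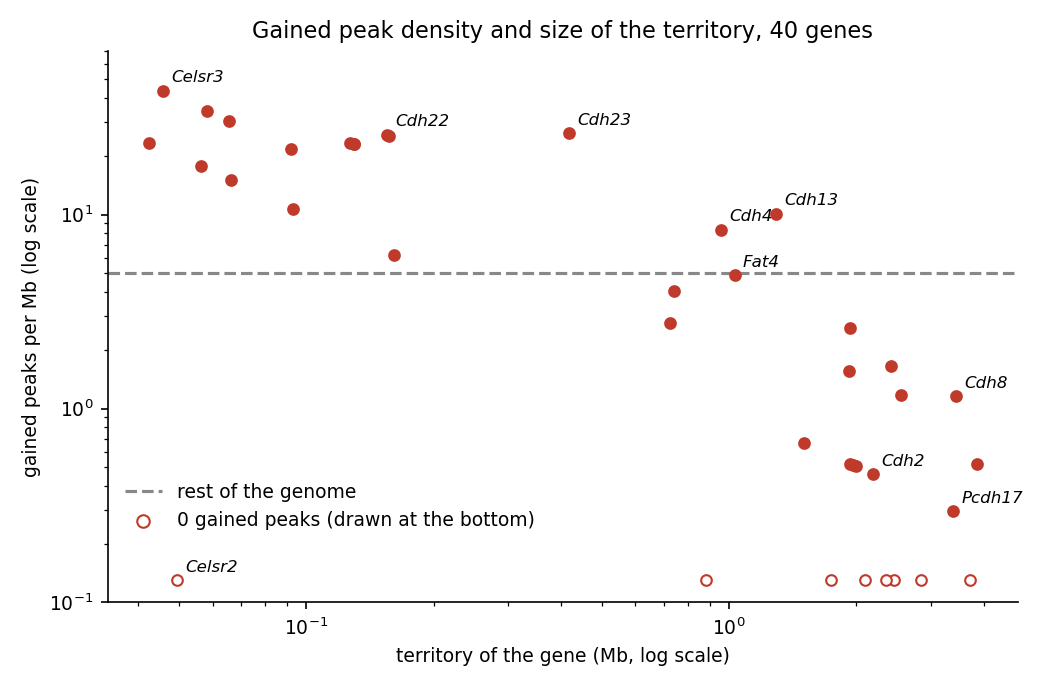
Gained peaks per Mb against the size of the territory (Mb), both on log scales, for each of the 40 cadherin genes; the dashed line is the rest of the genome (4.97 per Mb) and open points are genes with 0 gained peaks. Genes with a territory under 0.5 Mb lie above the line except *Celsr2*, and of the larger territories only those of *Cdh13* and *Cdh4* do; genes with the same few peaks fall on a descending line by construction.

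The sequence content of cadherin peaks was compared with that of the other peaks of the same list. Mean GC contents differed by less than 1 SD over single peaks. That spread is wider than the error of a mean, and the differences in GC content were not tested. GC content was 55.3% ± 8.38 (SD over 99 peaks) for gained peaks, against 56.7% ± 8.55 for the other gained peaks, and 49.2% ± 5.11 for the 19 lost peaks, against 50.5% ± 5.85. CCAAT was present in 36 of the 99 gained peaks (36.4%, 27.6 to 46.2), against 29.2% of the other gained peaks (difference 7.14 points, -1.69 to 17.0), and in 2 of the 19 lost peaks. GGGCGGGG was present in 12 gained peaks (12.1%), against 11.5%, and in 0 lost peaks. CAGGTG was present in 10 gained peaks (10.1%, against 10.3%), and GATAAG in 7 (7.07%, against 9.91%). TGACTCA was present in 3 (3.03%, against 4.20%), ACATTCC in 5 (5.05%, against 3.75%), and GGGTGTGG in 6 (6.06%, against 4.37%). The MEF2 site was present in 2 (2.02%, against 3.27%). The CTCF site was present in 2 (2.02%, against 0.271%), in *Cdh4* and *Clstn3*, and was the 1 string of the 9 whose difference (1.75 points, 0.280 to 6.80) had an interval without 0, a value that rests on these 2 peaks. The strings GGGTGTGG and GGGCGGGG share the KLF and SP consensus and can mark neighbouring sites. Over all listed peaks, CCAAT was present in 29.3% of gained and 12.4% of lost, GATAAG in 9.88% and 9.14%, CAGGTG in 10.3% and 5.90%, GGGTGTGG in 4.38% and 1.75%, GGGCGGGG in 11.6% and 0.364%, and the MEF2 site in 3.26% and 1.46%. The strings ACATTCC (3.76% and 7.43%) and TGACTCA (4.19% and 6.96%) and the CTCF site (0.285% and 2.48%) were more frequent in lost peaks.

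The proteins that link cadherins to the cytoskeleton and to planar polarity were read the same way, from a list of 24 genes. A gained peak was assigned to 17 of the 24 and a lost peak to 11, beside 37.4% and 10.8% of all protein-coding genes and 68.5% and 36.5% of those of 100 kb or more. Several of the 24, the alpha-catenin genes among them, are of that length, but most are shorter. Among protein-coding genes under 100 kb the shares were 33.4% and 7.47%. *Ctnnb1*, which encodes beta-catenin, had 5 gained and 0 lost peaks, and *Ctnna3*, an alpha-catenin of the heart, had 3 and 0. *Ctnna1* had 1 of each, *Ctnnd1* (p120-catenin) had 2 gained and 1 lost, and *Vcl*, the vinculin gene, had 1 gained and 2 lost. *Afdn*, which encodes the junction protein afadin, had 2 lost peaks and no gained peak. Of the planar polarity genes, *Prickle1* had 3 gained and 3 lost peaks, *Vangl1* 3 and 1, and *Vangl2* 1 and 0, whereas *Fzd3* and *Fzd6* had neither kind.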

How the data were processed

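ATAC-seq peaks of 4 WT and 4 *Chd4-CMko* samples were used as deposited. Per the labels, the authors used BWA-MEM and the mm10 genome for alignment, HOMER 4.10.3 for peaks and ChIPseeker 1.20.0 for annotation. Filters of reads and the way samples were combined are not given in the sources used here. The deposited score of each peak has no stated scale, and scores were compared only within a list, except in 1 alternative that applies a common limit to both lists. Precision by depth could not be given, because the lists hold no counts. Peaks (1-based, 151 bases) were placed on GRCm38, the same build as mm10, with all transcripts of GENCODE M21 protein-coding genes, and distances were taken from the edge of the peak. A peak could belong to several genes. Shares have Wilson, differences Newcombe and densities exact Poisson 95% intervals (Python 3.11.15, numpy 2.4.6, scipy 1.17.1, pysam 0.24.0). Assignment and motif search were tested on simulated intervals. The members, gene lists and alternatives were chosen with earlier results of these data known. The rule for genes named was the 8 with the most gained peaks including ties, all with a lost peak or a gained peak within 3 kb of their TSS, the owners of the 5 highest scores of each list, and *Cdh1*, *Cdh2*, *Cdh11* and *Cdh13*. All 40 were accounted for, and members of the other lists were named as examples after their values were seen. Sequences were those of the highest gained peaks of 5 genes and of 2 lost peaks, and 2 further sequences are not reported here.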

Additional observations from a re-analysis of the deposited data

How the results depend on the processing

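No paired analysis was possible because the lists hold no value per sample, although the samples share replicate numbers, and no sample could be left out for the same reason. Of 74 values of 9 results under the alternatives, 58 stayed within the interval, SD or 1.5-fold limit of the reported value and 16 did not. With peaks within 10 kb of the gene body only, gained peaks numbered 62 and lost peaks 9, members with a lost peak 7, and the densities were 5.27 and 0.764 per Mb (the sequence counted is smaller by construction). With only peaks at or above the median score of their list, gained peaks numbered 41 and lost peaks 7, members with a gained peak 21 and with a lost peak 5, at 0.792 and 0.135 per Mb. With the median score of the lost list as the limit for both lists, which assumes that the lists share a score scale that is not stated, the gained share was 90.4%, lost peaks numbered 7, members with a lost peak 5, and the densities were 1.28 and 0.135 per Mb. Both score limits leave fewer peaks by construction. The common limit (36.8) lies below the median of the gained list (62.5), so it removes a larger part of the lost list. The gained share of all listed peaks therefore rises as well, and its value under this limit was not computed. Leaving out peaks over 50% covered by repeats, chosen after seeing the data, left 84 gained and 16 lost peaks and 29 members with a gained peak. Counts of 19 lost peaks limit every statement on lost peaks, and a peak under the 2-fold limit is in neither list.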

Other observations

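Of 21 cadherin genes outside the 40, 8 had a gained peak and 2 a lost peak, with 24 gained and 3 lost peaks in all. These shares are near those of all protein-coding genes (37.4% and 10.8%). *Cdh26* alone took 12 of these gained peaks and 1 of the lost peaks in or around a gene of 56.8 kb, 1 gained peak fewer than *Cdh13*. *Cdh5*, which encodes the cadherin of endothelial junctions, had 2 gained and 0 lost peaks. *Dchs2*, a relative of *Dchs1*, had 3 gained peaks, and *Pcdh20* had 2 gained and 2 lost. Of the desmosomal cadherins, *Dsg2*, the desmoglein of cardiomyocytes, and *Dsc1* had 1 gained peak each, and the other desmosomal genes of the list had neither kind. These genes were named after their values were seen.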
